A study of Mus musculus with 9 samples.

Results

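A group of 9 genes that handle cholesterol outside its synthesis was followed in mouse cumulus cells, the granulosa cells around the oocyte. They are the lipoprotein receptor genes Vldlr, Lrp8 and Scarb1, the sterol transfer genes Stard4 and Npc1, the export gene Abca1, and Insig1, Srebf1 and Srebf2 of the SREBP system. All probe sets annotated to these 9 genes were taken, which gave 23 of the 45101 probe sets on the array and 9 of its 18194 annotated genes. Of the 23 probe sets, 22 exceeded the 40th percentile of their own array on at least 3 of 9 arrays and were tested, and each gene had at least 1 of them. Per the labels, the DM group carried Bmp15-/-Gdf9+/-, that is, no BMP15 and 1 intact copy of the GDF9 gene, the Bmp15-/- group lacked BMP15 alone, and the wildtype group lacked neither. Both proteins are growth factors that the oocyte secretes. There were 3 arrays per genotype from separately collected samples, each a pool of 75 to 100 cumulus-oocyte complexes from 3 to 4 females, so a value is a mean over animals. All females were on a B6/129 background, were 4 to 5 months old and received 5 IU of equine chorionic gonadotropin for 48 hours. Cells came from large antral follicles in medium with 5 µM milrinone, which holds the oocyte in meiotic arrest, and 10 ng of RNA per sample was amplified in 2 rounds before hybridisation.

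Cells take up cholesterol through receptors of the LDL receptor family, which internalise whole lipoproteins, and through SR-BI, the product of Scarb1, which takes cholesteryl esters from high-density lipoprotein. Cholesterol then moves out of lysosomes and between membranes on transfer proteins, and ABCA1 exports the excess. When sterols in the endoplasmic reticulum are scarce, SCAP escorts the SREBP transcription factors to the Golgi for cleavage, and they then raise the genes of synthesis and uptake, while INSIG1 holds the complex back when sterols are plentiful. Mouse oocytes are known to depend on cumulus cells for cholesterol.

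Values are log2 expression values on the scale of RMA (robust multi-array average), which compresses changes of dim transcripts, and levels of different probe sets are not comparable. The correlation r over all probe sets was 0.988 to 0.995 within a genotype and 0.975 to 0.992 between genotypes. None of the 11 cumulus and granulosa markers on the array was below the 40th percentile on all 3 arrays of any genotype, and their median was 10.51 to 10.99 in DM, 10.33 to 10.44 in Bmp15-/- and 10.40 to 10.61 in wildtype. Single markers moved: in DM against wildtype Wt1, Slc38a3 and Nr5a2 rose (log2 2.29, 1.24 and 0.36), and Inhba and Foxl2 fell (-0.89 and -0.78). In 1 of its 3 probe sets Bmp15 read 5.05 to 5.09 in DM and 5.08 to 5.10 in Bmp15-/-, against 5.10, 9.58 and 8.41 on wildtype arrays 1, 2 and 3. A second read 3.51 to 3.62 in DM and 3.45 to 3.67 in Bmp15-/-, against 3.97, 9.34 and 7.97 on the same wildtype arrays. The third read 3.91 to 4.22 on all 9 arrays. Wildtype array 1 was thus at or just above the mutant level for this oocyte transcript, so results are also given without it. Gdf9 overlapped between all genotypes, at 4.67 to 5.63 in DM, 4.99 to 6.59 in Bmp15-/- and 5.03 to 8.12 in wildtype. Oocyte markers, 19 on the array, had overlapping medians of 5.38 to 6.18 in DM, 5.62 to 6.44 in Bmp15-/- and 5.80 to 6.51 in wildtype. Added on the linear scale (log2), they reached 10.46 in DM, 11.49 in Bmp15-/- and 11.54 in wildtype, with overlapping ranges. Of the 17 tested 1, Tle6, fell in both mutants (-0.98 in DM and -0.65 in Bmp15-/-). In DM against wildtype their changes ran from -1.64 (Bcl2l10, not called) to 0.06 (Kpna7, not called). The median change of the list was -0.31 in DM and -0.07 in Bmp15-/-. A lower oocyte content of the DM samples was thus not excluded. Over all genes tested 18.2% fell in DM and 5.78% in Bmp15-/- against wildtype. The gap between the 3' and 5' control probe sets of Gapdh, a sign of RNA quality and amplification, was 0.79 to 0.95 in DM, 0.66 to 0.73 in Bmp15-/- and 0.52 to 0.59 in wildtype, without overlap, while that of actin was 1.85 to 2.12, 1.85 to 1.92 and 1.87 to 1.90. Their part in the results was not tested.

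In DM cumulus cells the 3 receptor genes, the sterol carrier gene Stard4 and both SREBP genes fell, and the export gene Abca1 rose. Vldlr, Lrp8, Scarb1, Stard4, Srebf1 and Srebf2 fell 1.80- to 3.65-fold against wildtype, Abca1 rose 1.89-fold, and Npc1 and Insig1 were not called. These 7 of 9 genes were called, that is, had a limma p under 0.05 after Benjamini-Hochberg adjustment for all genes tested, beside 28.1% of all 13447 genes tested. The median log2 change of the 9 genes was -0.90, against -0.06 over all genes. Of the members' 22 probe sets 16 fell and 1 rose, beside 24.2% of all 27991 probe sets called. The same number of genes, 7, was called whichever single array was left out, wildtype array 1 included. In bulk samples a smaller share of cells with a transcript and less of it per cell cannot be told apart.

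Loss of BMP15 alone went with lower Vldlr, Lrp8 and Stard4. These 3 of 9 genes fell in Bmp15-/- against wildtype and none rose, beside 9.07% of all genes tested, and the median log2 change was -0.36, against -0.04 over all genes. At the level of probe sets, 11 of 22 fell and none rose, beside 6.33% of all probe sets. Both mutants were set against the same 3 wildtype arrays, so the changes in DM and in Bmp15-/- are not independent of each other. Without wildtype array 1, 2 of the 9 genes were called. Vldlr alone was called without wildtype array 2, wildtype array 3, Bmp15-/- array 1 or Bmp15-/- array 3, and 5 genes were called without DM array 3.

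Between the mutants, where 1 copy of Gdf9 is the difference, Lrp8, Scarb1, Stard4 and Srebf2 were lower in DM and Abca1 was higher. These 5 of 9 genes were called in DM against Bmp15-/-, beside 3.25% of all genes, with a median log2 change of -0.53, against -0.03 over all genes. Of 22 probe sets 5 fell and 1 rose, beside 1.93% of all probe sets. Without wildtype array 1 the count was 4 genes. It was 2 without Bmp15-/- array 1, Bmp15-/- array 2 or DM array 3, and 3 without Bmp15-/- array 3 or DM array 1. Stard4 and Abca1 were called under each of these 9 omissions of an array, while the calls of Lrp8, Scarb1 and Srebf2 were lost under 4, 5 and 6 of them.

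**Figure D1:**
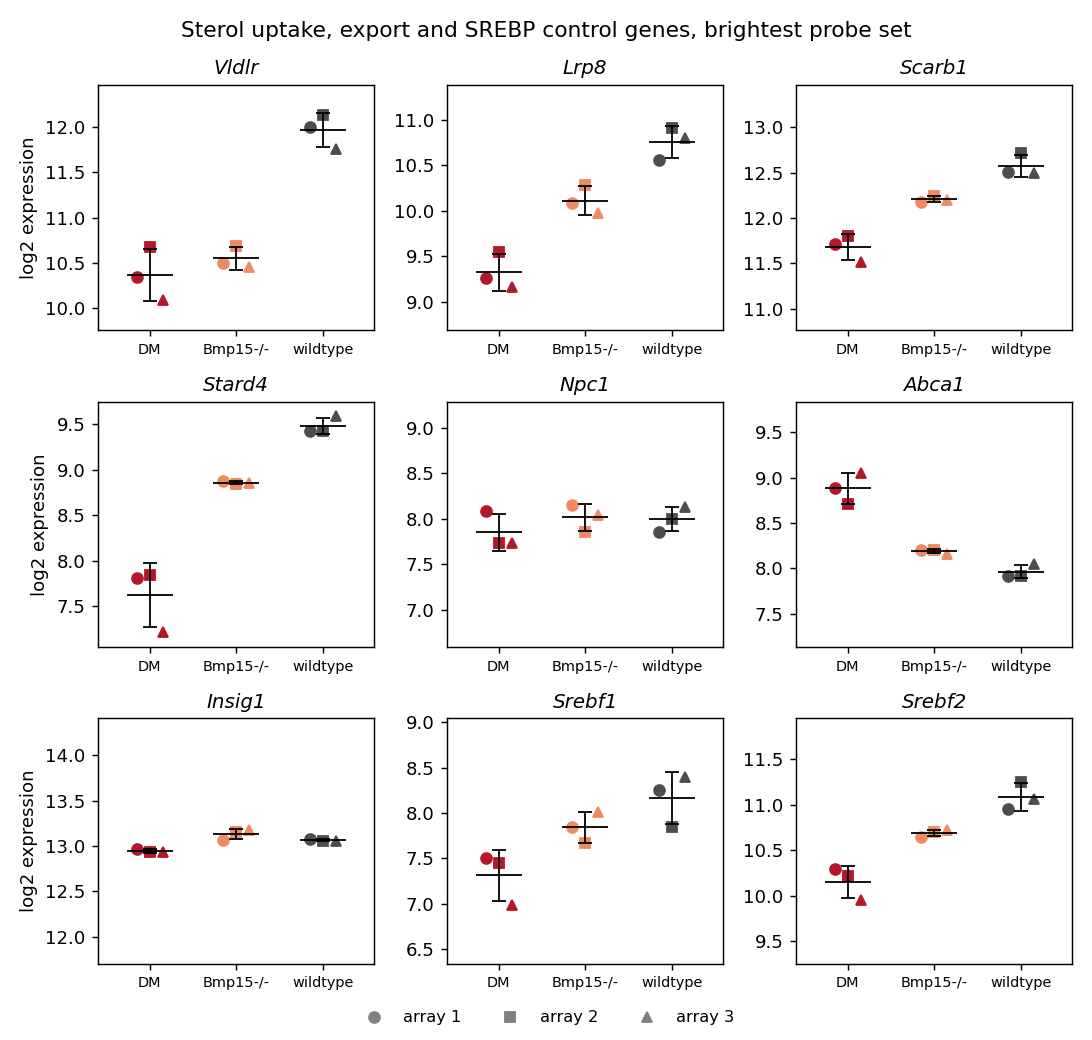
log2 expression of the brightest probe set of each of the 9 genes on 3 DM, 3 Bmp15-/- and 3 wildtype arrays (points, shape by array number; bars are means and SD; all panels span the same log2 range). Lrp8, Scarb1, Stard4 and Srebf2 are lowest in DM, between in Bmp15-/- and highest in wildtype, without overlap, Vldlr is low in both mutants, and Abca1 is highest in DM.

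Vldlr, the receptor for triglyceride-rich lipoproteins that carry apolipoprotein E, fell in both mutants. Its brightest probe set read 10.34, 10.67 and 10.09 in DM, 10.50, 10.69 and 10.46 in Bmp15-/-, and 12.00, 12.13 and 11.76 in wildtype. All 6 mutant arrays lay below all wildtype arrays, and the 2 mutants overlapped. The log2 change was -1.60 ± 0.15 (SE) in DM against wildtype, a 3.02-fold fall with an adjusted p of 1.57e-04. In Bmp15-/- against wildtype it was -1.41 ± 0.15, a 2.66-fold fall with an adjusted p of 0.00127 and the 63rd lowest change of 13447 genes. DM and Bmp15-/- differed by -0.18 (95% interval -0.53 to 0.16, adjusted p 0.549), so a further fall of up to that lower bound was within the error.

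Vldlr had 6 probe sets, and all 6 fell in both mutants against wildtype, 3.02- to 6.87-fold in DM and 2.59- to 4.27-fold in Bmp15-/-. The widest gap came from probe set 1435893_at, with 5.72, 6.11 and 5.48 in DM, 6.52, 6.65 and 6.19 in Bmp15-/-, and 8.49, 8.74 and 8.43 in wildtype. Its DM arrays all lay below its Bmp15-/- arrays, with a log2 difference of -0.69 (95% interval -1.09 to -0.28), but the adjusted p over all probe sets was 0.0892. None of the 6 was called between the mutants, and their differences ran from -0.18 to -0.69, all with the lower mean in DM. The dimmest, 1417900_a_at, averaged 5.09 in DM, beside array 40th percentiles of 4.97 to 5.05 there, so its fold of 3.50 in DM may be compressed.

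Lrp8 encodes ApoER2, the close relative of the VLDL receptor that also binds reelin, and it fell in steps. Its brightest probe set read 9.26, 9.55 and 9.16 in DM, 10.08, 10.28 and 9.97 in Bmp15-/-, and 10.56, 10.91 and 10.80 in wildtype, with no overlap between any 2 genotypes. It fell by 1.43 log2 units in DM against wildtype (SE 0.14, 2.70-fold, adjusted p 1.46e-04) and by 0.65 in Bmp15-/- against wildtype (SE 0.14, 1.57-fold, adjusted p 0.0210). DM was 1.72-fold lower than Bmp15-/- (log2 -0.78, adjusted p 0.0197). The call in Bmp15-/- against wildtype was lost without wildtype array 2 or 3 or Bmp15-/- array 1 or 3, at adjusted p of 0.0547 to 0.0820. The call between the mutants was lost without Bmp15-/- array 1 or 2 or DM array 1 or 3, at 0.0508 to 0.0834.

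The 3 Lrp8 probe sets did not give 1 size of change. Probe set 1440882_at fell by 1.61 in DM and by 0.84 in Bmp15-/- against wildtype (adjusted p 6.52e-04 and 0.0324), and its -0.77 between the mutants was not called (0.0737). The dim 1421459_a_at, at 6.06 to 6.22 in DM, 6.29 to 6.36 in Bmp15-/- and 6.29 to 6.66 in wildtype, differed by -0.28 in DM and -0.12 in Bmp15-/- against wildtype and was not called (adjusted p 0.0976 and 0.551). Between the mutants it differed by -0.16 (adjusted p 0.485), so the call of Lrp8 between the mutants rests on the brightest probe set. Which transcripts each probe set reads was not examined.

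Scarb1, the gene of the HDL receptor SR-BI, fell in DM. Its brightest probe set read 11.71, 11.80 and 11.52 in DM, 12.18, 12.24 and 12.20 in Bmp15-/-, and 12.51, 12.71 and 12.50 in wildtype. No 2 genotypes overlapped. The fall was 1.86-fold in DM against wildtype (log2 -0.90 ± 0.10, adjusted p 3.12e-04) and 1.44-fold in DM against Bmp15-/- (log2 -0.53, adjusted p 0.0247). In Bmp15-/- against wildtype the log2 difference was -0.36 (95% interval -0.59 to -0.14) at an adjusted p of 0.0502, and without DM array 2 or DM array 3, which enter that fit through its estimate of the spread, it was 0.0366 or less. A second probe set, 1416050_a_at, fell in all 3 comparisons, by 1.22, 0.57 and 0.65 in DM and Bmp15-/- against wildtype and in DM against Bmp15-/- (adjusted p 1.01e-04, 0.0104 and 0.0148). The third, 1437378_x_at, fell in DM against wildtype by 1.07 (adjusted p 0.00409) and missed the threshold in the other comparisons (adjusted p 0.188 and 0.120). The call between the mutants was lost without any 1 of the Bmp15-/- arrays or without DM array 1 or 3, at adjusted p of 0.0539 to 0.0970.

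Stard4, a soluble carrier that moves cholesterol between membranes, had the largest fall in DM among the brightest probe sets of the 9 genes. It read 7.81, 7.84 and 7.21 in DM, 8.88, 8.84 and 8.86 in Bmp15-/-, and 9.43, 9.43 and 9.59 in wildtype. The 3 genotypes did not overlap, and DM array 3 was the lowest. The fall was 3.65-fold in DM against wildtype (log2 -1.87 ± 0.15, adjusted p 8.53e-05), the 58th lowest change of all genes tested. In DM against Bmp15-/- it was 2.37-fold (log2 -1.24, adjusted p 0.00728), the 26th lowest change. In Bmp15-/- against wildtype it was 1.54-fold (log2 -0.63, adjusted p 0.0365), and this call was lost when any 1 of the 6 arrays compared was left out, at adjusted p of 0.0748 to 0.115.

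A second Stard4 probe set, 1455011_at, fell by 1.66, 0.68 and 0.98 in DM and Bmp15-/- against wildtype and in DM against Bmp15-/- (adjusted p 3.10e-04, 0.0412 and 0.0236). The third, 1429239_a_at, was dim and scattered, at 5.17 to 6.22 in DM, 5.92 to 6.33 in Bmp15-/- and 6.33 to 6.59 in wildtype. Its differences of -0.58, -0.26 and -0.32 in the same order were not called.

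Npc1, the membrane protein that lets cholesterol out of lysosomes, showed no called difference. It read 8.09, 7.73 and 7.73 in DM, 8.15, 7.86 and 8.04 in Bmp15-/-, and 7.86, 8.00 and 8.13 in wildtype, and all 3 genotypes overlapped. The log2 differences were -0.14 in DM against wildtype (95% interval -0.43 to 0.14), 0.02 in Bmp15-/- against wildtype (-0.26 to 0.31) and -0.17 in DM against Bmp15-/- (-0.45 to 0.12). Changes larger than those bounds lay outside the intervals, and smaller ones were within the error with 3 arrays per genotype.

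Abca1, which hands cholesterol and phospholipid to apolipoprotein A-I, was the 1 gene of the 9 that rose. Its brightest probe set read 8.88, 8.71 and 9.05 in DM, 8.20, 8.20 and 8.16 in Bmp15-/-, and 7.92, 7.92 and 8.05 in wildtype, without overlap. The rise was 1.89-fold in DM against wildtype (log2 0.92 ± 0.10, adjusted p 2.74e-04) and 1.62-fold in DM against Bmp15-/- (log2 0.70, adjusted p 0.00912). Bmp15-/- differed from wildtype by 0.22 (95% interval 0.00 to 0.45, adjusted p 0.185). Both other probe sets were near or below the 40th percentile of their arrays. Of these, 1421839_at passed on 4 of 9 arrays and differed by 0.16 in DM against wildtype (adjusted p 0.624), and 1450392_at, at 3.73 to 4.30 on the 9 arrays, passed on 0 and was not tested. With the mean of all probe sets in place of the brightest, the rise in DM against wildtype was 0.35 on the log2 scale (adjusted p 0.0373), and the difference between the mutants was 0.19 and not called (0.366).

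Insig1, the protein that keeps the SCAP and SREBP complex in the endoplasmic reticulum and whose gene is itself an SREBP target, was not called in any comparison. It read 12.97, 12.93 and 12.94 in DM, 13.07, 13.15 and 13.18 in Bmp15-/-, and 13.08, 13.06 and 13.06 in wildtype. The DM arrays lay just below all others. The log2 difference was -0.12 in DM against wildtype (95% interval -0.28 to 0.04, adjusted p 0.241), 0.06 in Bmp15-/- against wildtype (-0.10 to 0.22, adjusted p 0.629) and -0.18 in DM against Bmp15-/- (-0.35 to -0.02, adjusted p 0.198). With a prior variance that followed brightness, DM was called lower against both wildtype (adjusted p 0.0437) and Bmp15-/- (0.0323). Insig1 lay near the top of the scale, which ended at 14.53. Among the 150 genes tested that were at least as bright on average, 11 rose and 9 fell in DM against wildtype, with changes from -0.75 (Inhbb) to 0.76 (Jun). Over all genes tested 9.95% rose and 18.2% fell in that comparison. Whether the brightness of Insig1 compressed its change was not tested.

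Srebf2, the gene of the SREBP that chiefly drives cholesterol synthesis and uptake, fell in DM. It read 10.29, 10.21 and 9.95 in DM, 10.65, 10.70 and 10.72 in Bmp15-/-, and 10.95, 11.25 and 11.06 in wildtype, and no 2 genotypes overlapped. The fall was 1.91-fold in DM against wildtype (log2 -0.93 ± 0.11, adjusted p 4.88e-04) and 1.45-fold in DM against Bmp15-/- (log2 -0.54, adjusted p 0.0374). Bmp15-/- differed from wildtype by -0.40 (95% interval -0.65 to -0.15, adjusted p 0.0570), with a call only without DM array 3 among the omissions of 1 array (0.0317). The call between the mutants was lost without wildtype array 1 or 3, without any 1 Bmp15-/- array or without DM array 3, at adjusted p of 0.0523 to 0.124. Over all probe sets in place of genes it stood at 0.0536. The second probe set, 1426744_at, fell by 1.05 in DM against wildtype (adjusted p 0.00495) and differed by -0.46 in Bmp15-/- against wildtype and -0.59 between the mutants (adjusted p 0.181 and 0.145).

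Srebf1, whose SREBP-1 products act mainly on fatty acid synthesis, had 1 probe set and fell in DM against wildtype. It read 7.50, 7.45 and 6.99 in DM, 7.84, 7.67 and 8.01 in Bmp15-/-, and 8.25, 7.84 and 8.39 in wildtype. DM lay below the other genotypes, which overlapped. The fall was 1.80-fold in DM against wildtype (log2 -0.85 ± 0.18, adjusted p 0.00743). The differences of -0.32 in Bmp15-/- against wildtype (95% interval -0.72 to 0.08, adjusted p 0.288) and -0.53 in DM against Bmp15-/- (-0.93 to -0.13, adjusted p 0.140) were not called. The probe set was not assigned to either Srebf1 transcript form here.

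**Figure D2:**
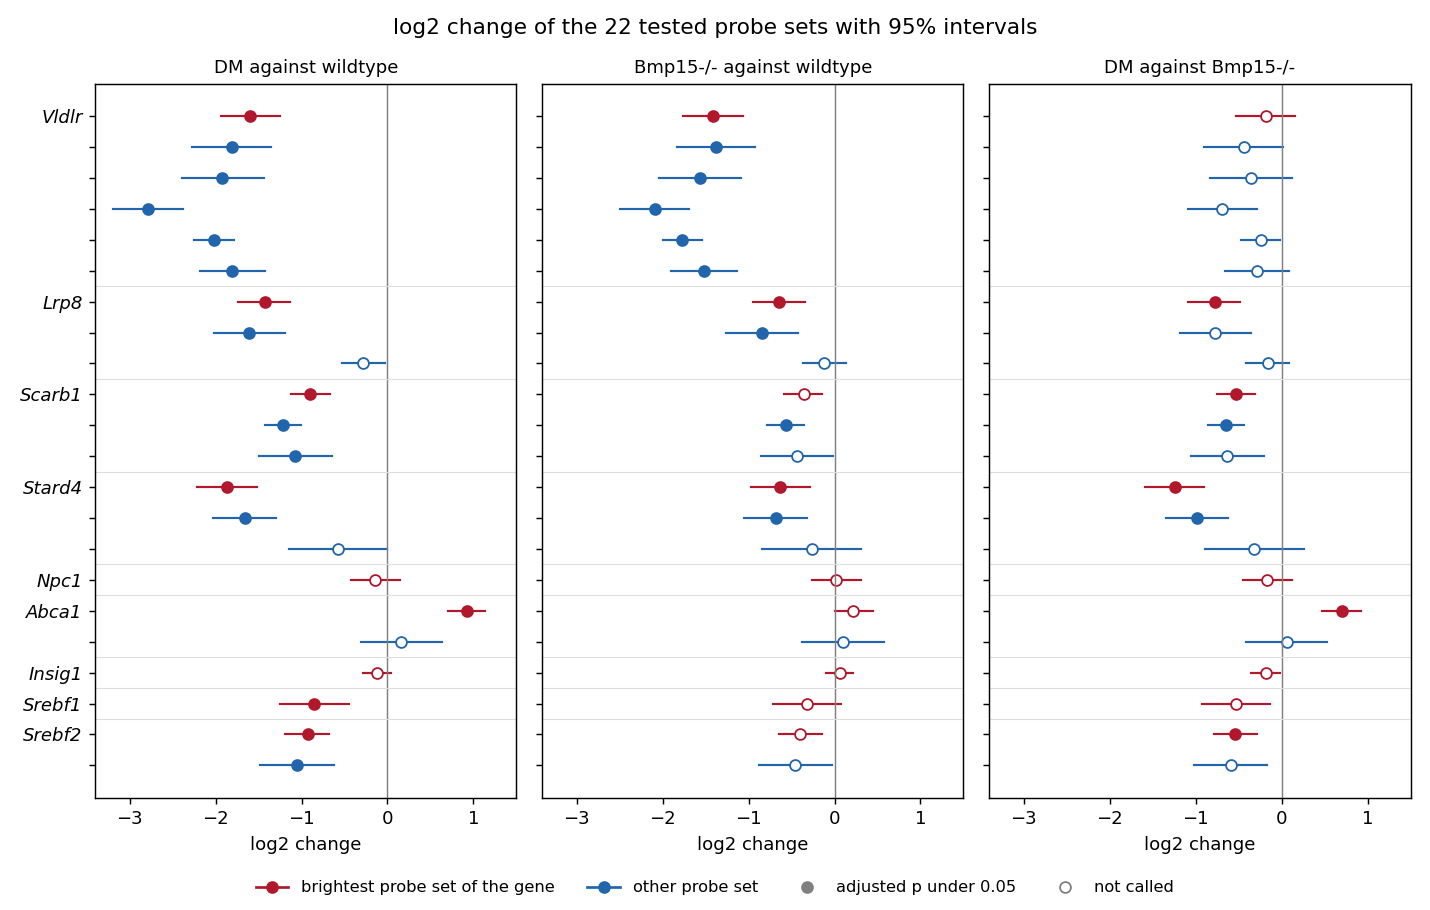
log2 change (x axis) of each of the 22 tested probe sets (rows, grouped by gene) in DM against wildtype, Bmp15-/- against wildtype and DM against Bmp15-/-, with 95% intervals from the fit. Filled points passed an adjusted p under 0.05; all 6 Vldlr probe sets are filled in both comparisons with wildtype and open between the mutants, and the third probe sets of Lrp8 and Stard4 lie nearer to 0 than the others of their gene.

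For these genes the DM arrays were less even than those of the other genotypes. Taken per array as the median of the 9 genes relative to the wildtype mean, the level was -0.80, -0.77 and -1.13 on DM arrays 1, 2 and 3, -0.39, -0.39 and -0.37 in Bmp15-/-, and -0.05, 0.00 and 0.04 in wildtype. DM array 3 was the lowest DM array for 16 of the 22 tested probe sets and for 6 of the 9 genes. The same count was not made over all probe sets, so whether it is particular to these genes was not tested. Probe sets of 1 gene are also not independent of each other. DM array 3 also had the smallest interquartile range over all probe sets among the DM arrays, 3.16, against 3.23 and 3.34 on DM arrays 1 and 2. Its oocyte marker median, 6.18, was the highest of the DM arrays, and its Gapdh gap, 0.79, the smallest. Without it the 7 calls of DM against wildtype held.

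Promoter windows of 300 bases, 250 before and 50 after an annotated start, were taken from RefSeq on GRCm38.p6, and 6 of the 9 genes had 1 to 3 of them, 11 in all. Both strands were searched for TCACNCCAC (a common form of the sterol regulatory element), CACGTG (E-box), CCAAT (NF-Y box) and GGGCGG (Sp1 box), and no 2 matches overlapped in these windows. SREBPs are known to bind sterol regulatory elements and E-boxes, with NF-Y and Sp1 as partners. TCACNCCAC was in 0 of the 11 windows and in 1.24% of all 32851 windows, and CACGTG was in 7.15%, CCAAT in 37.4% and GGGCGG in 35.7% of them. Those of 1 gene that fell in DM (Srebf2), 1 that was not called (Insig1), 1 that rose (Abca1) and the second window of Vldlr, low in both mutants, are shown for the 250 bases before the start, 5′ to 3′ on the gene's strand, with matches in capitals. They lie at chr15:82147019-82147268 (plus strand), chr5:28071162-28071411 (plus), chr4:53159896-53160145 (minus) and chr19:27216770-27217019 (plus).
Srebf2: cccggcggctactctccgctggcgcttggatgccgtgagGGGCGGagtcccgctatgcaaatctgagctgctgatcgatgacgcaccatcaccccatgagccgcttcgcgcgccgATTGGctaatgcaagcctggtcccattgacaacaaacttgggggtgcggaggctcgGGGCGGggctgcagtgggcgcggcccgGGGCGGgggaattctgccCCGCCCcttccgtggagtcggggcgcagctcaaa
Insig1: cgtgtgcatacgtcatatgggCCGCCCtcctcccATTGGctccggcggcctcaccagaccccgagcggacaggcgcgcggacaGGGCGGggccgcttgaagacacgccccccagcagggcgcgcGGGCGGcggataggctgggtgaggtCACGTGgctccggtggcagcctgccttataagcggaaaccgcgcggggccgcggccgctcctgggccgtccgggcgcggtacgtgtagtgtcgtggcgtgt
Abca1: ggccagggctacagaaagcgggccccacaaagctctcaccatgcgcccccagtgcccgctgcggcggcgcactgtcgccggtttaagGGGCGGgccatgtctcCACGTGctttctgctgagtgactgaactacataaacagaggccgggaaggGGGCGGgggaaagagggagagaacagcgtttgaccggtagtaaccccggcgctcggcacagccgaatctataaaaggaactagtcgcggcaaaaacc
Vldlr: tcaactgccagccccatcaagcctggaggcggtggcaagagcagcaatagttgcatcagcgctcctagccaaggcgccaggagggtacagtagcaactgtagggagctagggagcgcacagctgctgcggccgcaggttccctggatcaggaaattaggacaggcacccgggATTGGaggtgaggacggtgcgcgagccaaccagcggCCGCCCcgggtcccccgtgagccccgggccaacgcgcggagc
An E-box was found in Insig1 and Abca1, and none in Srebf2 or Vldlr. NF-Y boxes were in the windows of Srebf2, Insig1 and Vldlr, and Sp1 boxes were in all 4. Over all 11 windows of the group, 2 held an E-box, 5 an NF-Y box and 6 an Sp1 box, and the 3 Lrp8 windows and the first Vldlr window held none of the motifs. A match is only a run of letters, and its use by a factor was not tested. As TCACNCCAC was in only 1.24% of all windows, its absence from these 11 says little about the genes. Other forms of the sterol regulatory element and sequence outside the windows were not searched.

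Genes whose profile over the 9 arrays and 3 genotypes was most like a member's were sought among the other 13446 genes tested, by the root-mean-square difference of centred log2 values. Scarb1 and Srebf2 were the closest pair within the group, 0.0580 apart. Srebf2 was the second closest of all genes to Scarb1, after Entpd6 (0.0458), and Scarb1 was the closest to Srebf2, before Tecr (0.0756). Lrp8 was nearest to Pkm (0.0981) and Aldoa (0.110), Stard4 to Tpi1 (0.127) and Bnip3 (0.182), and Vldlr to Fndc5 (0.176) and Kdm8 (0.194). Abca1 was nearest to Nnt (0.0779) and Ccdc112 (0.0986), and Srebf1 to Dnajb13 (0.118) and Tdgf1 (0.133). These distances are descriptions and carry no test.

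Other lipoprotein receptors and their partners moved both ways. Of 9 tested, 4 rose and 1 fell in DM against wildtype, with a list median of 0.05, and 1 rose and 1 fell in Bmp15-/-, with a median of -0.12. Over all genes 28.1% were called in DM, 9.95% up and 18.2% down, and 9.07% in Bmp15-/-. The sorting receptor Sorl1 rose 2.34-fold in DM (6.71, 6.49 and 6.98 in DM, against 5.31, 5.60 and 5.60 in wildtype, adjusted p 4.01e-04). Lrp4 rose 2.06-fold (adjusted p 0.0156) and the fatty acid and lipoprotein scavenger Cd36 1.81-fold (adjusted p 0.0178). The call of Lrp4 was lost without wildtype array 3 (0.0593), and that of Cd36 without wildtype array 1 or 2 or DM array 1 (up to 0.0665). Lrp1, a large endocytic receptor, fell in both mutants, by 0.71 in DM (9.93, 9.88 and 9.69) and 0.61 in Bmp15-/- (9.94, 9.89 and 9.95), against 10.70, 10.40 and 10.51 in wildtype (adjusted p 0.00126 and 0.00884).

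Mylip, named after its values were seen, encodes the ubiquitin ligase IDOL, which marks LDL receptor family members, among them VLDLR and ApoER2, for degradation. It read 6.45, 6.44 and 6.33 in DM, 7.38, 6.19 and 6.64 in Bmp15-/-, and 6.00, 4.89 and 5.21 in wildtype. Every mutant array was above every wildtype array, and the rise was 2.06-fold in DM (adjusted p 0.0368) and 2.59-fold in Bmp15-/- (adjusted p 0.0305) against wildtype. On wildtype array 2 it lay below the 40th percentile of that array, 5.02, and on wildtype array 3 just above it, 4.99. These folds may thus be compressed. The call in DM was lost without wildtype array 2 or 3, Bmp15-/- array 3 or any 1 DM array (adjusted p up to 0.127), and that in Bmp15-/- without wildtype array 2 or 3 or Bmp15-/- array 1 or 3 (up to 0.103). The number of genes of its list that rose in DM was 2 without wildtype array 2, wildtype array 3 or DM array 1.

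Several genes of sterol transfer and storage rose. In DM against wildtype 6 of 17 tested genes for transfer, esterification and lysosomal release rose and 0 fell, with a median of 0.14, and in Bmp15-/- 4 rose and 0 fell, with a median of 0.05. Over all genes 9.95% rose and 18.2% fell in DM, and 3.29% rose and 5.78% fell in Bmp15-/-. The lipid droplet coat Plin2 rose 1.75-fold in DM against wildtype (adjusted p 0.00208) and 1.51-fold against Bmp15-/- (0.0440), and without DM array 2 alone the second call held among the omissions of 1 array. The sterol carriers Gramd1b, Gramd1c and Osbp2 rose 1.55-, 1.45- and 1.44-fold in DM (adjusted p 0.00581, 0.0245 and 0.00392), and the call of Gramd1c was lost without wildtype array 2 or 3 or DM array 2 (up to 0.0874). The count in DM was 3 without wildtype array 2 or DM array 2, and that in Bmp15-/- was 1 without wildtype array 2, wildtype array 3 or Bmp15-/- array 3 and 2 without any other array of those 2 genotypes.

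Among 8 genes of export and of LXR, the sterol-sensing receptor that raises Abca1, 1 was called in DM against wildtype, Cyp27a1, beside 28.1% of all genes. This sterol hydroxylase read 7.25, 7.23 and 7.45 in DM, 5.29, 6.94 and 6.91 in Bmp15-/-, and 5.03, 4.91 and 4.80 in wildtype. Bmp15-/- array 1 stayed near wildtype while arrays 2 and 3 were near DM. The wildtype level was at about the 40th percentile of its arrays, 4.99 to 5.02, so the gene entered the test through the mutant arrays where it was high, and no fold is given. The calls of Cyp27a1 as higher in DM (adjusted p 0.00165) and in Bmp15-/- (adjusted p 0.0390) share that limit and are not taken as support. The call in Bmp15-/- was lost without any 1 wildtype array, Bmp15-/- array 2 or 3 or DM array 1 (adjusted p up to 0.133). The LXR gene Nr1h3 differed by -0.21 in DM (adjusted p 0.149).

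Some SREBP processing genes fell in DM. Of 12 tested, 5 fell and 1 rose in DM against wildtype, with a median of -0.29, beside 18.2% of all genes that fell and 9.95% that rose. In Bmp15-/- 1 fell, with a median of -0.17, beside 5.78% of all genes that fell. Scap, the escort of SREBPs, fell 1.80-fold in DM, to 9.57, 9.98 and 9.24, against 10.36, 10.50 and 10.48 in wildtype (adjusted p 0.00480), and its -0.37 in Bmp15-/- was not called (0.181). Spring1, needed for the protease that cleaves SREBPs, fell 1.84-fold in DM (0.00919), Erlin1 1.62-fold (8.56e-04) and Rnf145 1.40-fold (0.00476), the last 2 being parts of sterol-dependent degradation. Insig2, the other INSIG, and Mbtps1, the site-1 protease, differed by -0.02 and 0.04 in DM and were not called (adjusted p 0.950 and 0.753). The count that fell in Bmp15-/- was 0 without any 1 wildtype array or Bmp15-/- array 3, 2 without DM array 3 and 3 without DM array 2. The count that rose in DM was 0 without wildtype array 1 or DM array 3.

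Nearly all cholesterol synthesis enzymes, whose genes SREBPs are known to drive, fell in DM, and fewer passed the test in Bmp15-/-. Of 17 tested 16 fell and 0 rose in DM against wildtype (median -1.33), beside 18.2% of all genes that fell. In Bmp15-/- against wildtype 7 fell and 10 were not called (median -0.47), beside 5.78% of all genes that fell, and in DM against Bmp15-/- 7 fell (median -0.65), beside 1.61%. Cyp51, Fdps, Msmo1 and Nsdhl fell 2.50-, 4.71-, 2.89- and 2.57-fold in DM against wildtype (adjusted p 1.30e-05, 6.22e-05, 7.51e-05 and 8.53e-05). Per array the median of the 17, relative to the wildtype mean, was -1.30, -1.03 and -1.45 in DM, -0.46, -0.46 and -0.43 in Bmp15-/-, and -0.05, 0.12 and -0.05 in wildtype. Only 1 to 4 of the 17 fell in Bmp15-/- against wildtype when any 1 of the 6 arrays compared was left out, with 1 without Bmp15-/- array 3. In DM against Bmp15-/- 4 fell without Bmp15-/- array 2 and 12 without DM array 2.

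Part of the fatty acid synthesis and desaturation genes fell. Of 15 tested genes, 6 fell in DM and 5 in Bmp15-/- against wildtype and 0 rose, with medians of -0.24 and -0.11, beside 18.2% and 5.78% of all genes that fell. The members that fell were led by the stearoyl-CoA desaturase Scd1, at 12.7-fold in DM (adjusted p 1.73e-04) and 2.64-fold in Bmp15-/- (0.0422), and the delta-6 desaturase Fads2, at 2.95- and 1.76-fold (1.01e-04 and 0.00761). Acss2, which makes acetyl-CoA, and the elongase Elovl1 fell 2.79- and 1.54-fold in DM (adjusted p 0.00235 and 0.00141). In Bmp15-/- the count was 2 without any 1 wildtype array or Bmp15-/- array 3 and 3 without Bmp15-/- array 1 or 2, and the call of Scd1 there was lost without any 1 of those 6 arrays (adjusted p up to 0.118).

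**Figure D3:**
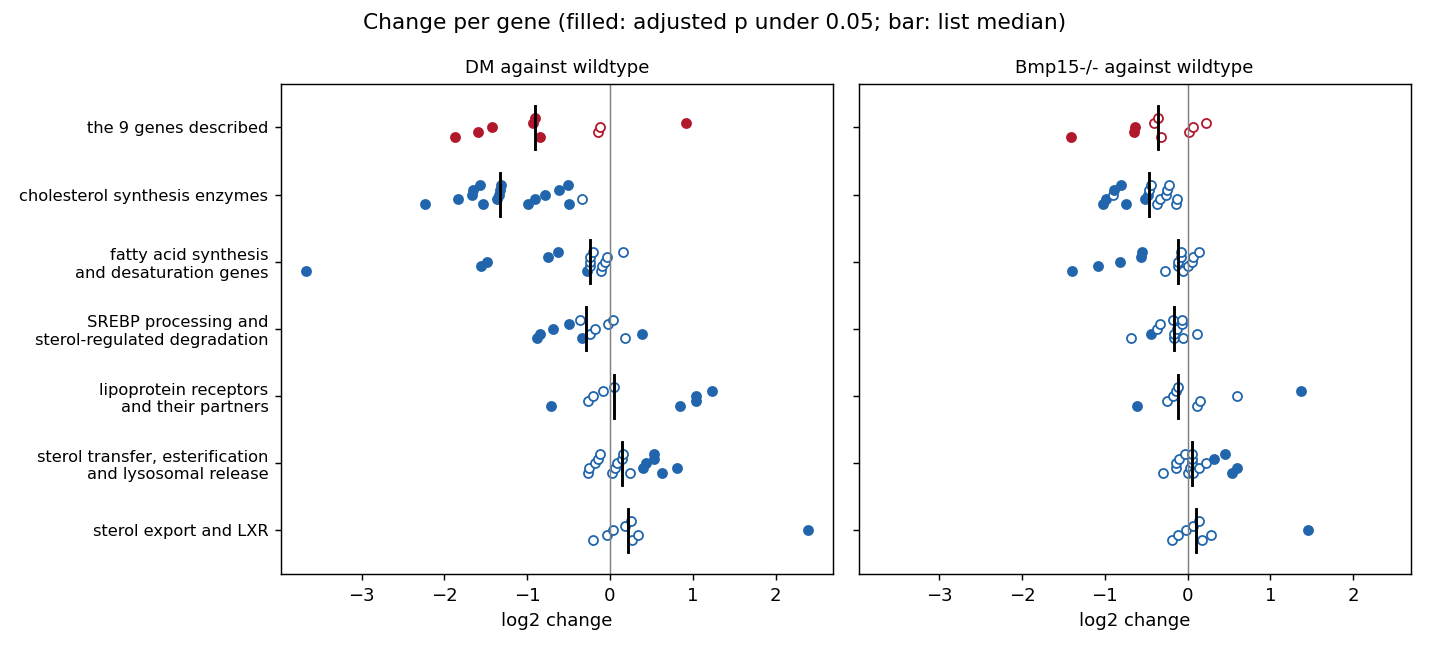
log2 change (x axis) of each tested gene of the 9 described (red) and of 6 lists of the same pathways (blue) in DM and in Bmp15-/- against wildtype; filled points passed an adjusted p under 0.05 and black bars are medians. In DM the 9 genes have a median of -0.90 and the synthesis enzymes of -1.33, while the lists of other receptors, transfer and export have medians of 0.05, 0.14 and 0.21.

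Some markers of other cells moved with genotype. A summed level here adds the probe sets of a list on the linear scale, so the brightest member sets most of it. For 10 theca, stroma and smooth muscle markers the sum (log2) was 10.01 to 10.37 in DM, 9.61 to 9.74 in Bmp15-/- and 9.30 to 9.57 in wildtype, while the medians overlapped, at 5.30 to 5.58, 5.11 to 5.39 and 5.26 to 5.36. Of the 7 tested, Acta2, Pdgfra and Col1a1 rose in DM against wildtype (log2 2.09, 1.57 and 0.54) and Pdgfrb fell (-0.37). In Bmp15-/- Pdgfra rose (0.92) and Pdgfrb fell (-0.43). The others tested, Myh11, Tagln and Col3a1, differed by -0.17, 0.18 and 0.05 in DM and were called in neither mutant. Dcn and Col1a2 were too dim to be tested, so the rises were not shared by the whole list. Beside the marker calls here and below, 28.1% of all genes were called in DM and 9.07% in Bmp15-/- against wildtype. Cyp17a1, the defining theca marker, was near background at 4.50 to 4.85 in DM, 4.70 to 4.75 in Bmp15-/- and 4.65 to 5.49 in wildtype.

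The sum of 5 markers of luteinizing granulosa cells was 13.00 to 13.39 in DM, 13.28 to 13.40 in Bmp15-/- and 12.19 to 12.56 in wildtype. It followed 1 gene, the steroid dehydrogenase Hsd3b1, which rose by 0.91 in DM and 0.99 in Bmp15-/- against wildtype. The other 4 markers lay between 4.05 and 6.64, and of them only Star was called, higher by 0.32 in Bmp15-/-. Cyp11a1 was not called, and Pgr and Ptgfr were too dim to be tested. Pgr read 4.95 to 5.09 in DM, 4.73 to 4.74 in Bmp15-/- and 4.21 to 4.39 in wildtype. Erythroid markers, 3 on the array, summed to 6.46 to 6.74 in DM and 6.55 to 7.32 in Bmp15-/-, against 7.76 to 8.42 in wildtype. Of these Alas2 alone was called, with changes of -2.59 in DM and -1.98 in Bmp15-/-. Slc4a1 differed by -0.09 and 0.08 and was not called, and Hba-a1 was below the 40th percentile on every array.

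Surface epithelium markers, 6 in number, summed to 9.86 to 9.90 in DM, 9.66 to 10.02 in Bmp15-/- and 9.22 to 9.39 in wildtype, and of the 4 tested the keratin genes Krt8 and Krt18 rose in DM (0.55 and 1.17) and Krt8 in Bmp15-/- (0.62) against wildtype. Of 5 endothelial markers 4 were below the 40th percentile on all arrays of each genotype, and the sum of 7 immune markers overlapped, at 8.18 to 8.38, 8.18 to 8.39 and 8.08 to 8.21. The part of these markers in the changes of the sterol genes was not tested.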

How the data were processed

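Cumulus cell RNA of 9 samples was measured on 9 arrays. The authors deposited log2 expression values per probe set, with RMA and affy named per the submitters' processing notes and without a stated version. That the scale is log2 was read from the values, which ran from 2.87 to 14.53. Scanner files were not used here, and the number of arrays limits the precision.

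Probe sets were named from the platform annotation, with symbols updated through RefSeq (GRCm38.p6). Of 45101 probe sets 34958 had 1 gene, 932 several and 9211 none listed, and 34754 of the first matched RefSeq. The brightest probe set on average stood for its gene. A gene or probe set was tested if at least 3 of 9 arrays exceeded the 40th percentile of their own array, which left 13447 of 18194 genes and 27991 probe sets. All 9 arrays entered 1 fit for genes and 1 for probe sets (limma 3.58.1, R 4.3.3, version 1.17.8 of data.table), with genotype as the only term and 6 residual degrees of freedom. P-values were 2-sided, Benjamini-Hochberg adjusted over all rows of the fit and called under 0.05. Errors are SE of the fit. Intervals are 95% and not adjusted. On simulated data for DM against wildtype over 13447 genes, 47.2% of 1.5-fold, 83.6% of 2-fold and 99.4% of 4-fold changes were recovered, and 4.49% of calls were false. Only 200 genes were changed per run there, with noise independent between genes and arrays, while 3780 genes were called in the data. These rates therefore describe the simulation and not the calls reported here. Figures used matplotlib 3.10.9 in Python 3.11.15.

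The members, the 6 pathway lists, the 8 marker lists and the rules were chosen with earlier results of these data known. Named were all members, the targeted genes, up to 4 called genes per pathway list with the smallest p in DM against wildtype, and the 2 genes most like each member called there. Mylip, Nr1h3, Insig2, Mbtps1, Inhbb, Jun and the named markers were chosen after their values were seen. Listed genes without a tested probe set were not analysed here. Promoter windows came from the RefSeq table, without other sequence. Samples of different genotypes with the same number deviated together little over all genes, with correlations of -0.08 to 0.26 and 2 of 9 over 0.1. Samples with different numbers gave -0.20 to 0.17, and the highest value of all, 0.26, was array 2 of Bmp15-/- with array 2 of wildtype. The numbers were not taken as pairs, though a pairing was not excluded. Alternatives covered the dim filter, a floor, the choice of probe set, quantile normalization, the prior variance, array weights, the genotypes in the fit, a replicate block, an oocyte covariate and each array left out.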

Additional observations from a re-analysis of the deposited data

How the results depend on the processing

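The 27 log2 changes of the 9 genes in 3 comparisons were recomputed under 20 alternatives. Of these 540 values 479 kept direction and side of the threshold, 16 gained a call, 41 lost one and 4 turned sign. All 4 were Npc1 in Bmp15-/- against wildtype, at -0.01 with array weights, -0.01 with the oocyte covariate, -0.04 without wildtype array 1 and -0.04 without Bmp15-/- array 1, against 0.02 (range without 1 array -0.04 to 0.10), none of them called. Over the omissions of 1 array, calls in Bmp15-/- against wildtype ran from 445 to 1663 genes (1219 with all arrays), 1 to 5 member genes and 7 to 15 member probe sets. In DM against wildtype they ran from 2648 to 4157 genes (3780), with 7 to 7 member genes and 17 to 17 probe sets. In DM against Bmp15-/- they ran from 105 to 922 genes (437), 2 to 5 member genes and 0 to 9 probe sets, with 0 probe sets without Bmp15-/- array 1. In Bmp15-/- against wildtype 5 member genes were called, not 3, with the stricter dim filter, a trend in the prior variance, array weights (2350 genes) or only the genotypes compared (1894 genes). In DM against Bmp15-/- 3 member genes were called with the mean of all probe sets, and 2 member genes, 0 probe sets and 117 genes with only the genotypes compared, which leaves fewer degrees of freedom. An alternative chosen after seeing the data left out wildtype array 2 and Bmp15-/- array 2, those with the highest oocyte marker medians. It left 166 genes, 1 member gene and 4 member probe sets in Bmp15-/- against wildtype, 2211 genes in DM against wildtype, and 11 genes, 0 member genes and 0 probe sets in DM against Bmp15-/-, with fewer arrays in the fit. Otherwise the cause was not tested. Quantile normalization moved the split of calls in Bmp15-/- against wildtype to 590 higher and 520 lower, against 442 and 777 as deposited, and in DM against wildtype to 1738 and 1858, against 1338 and 2442. The replicate number, not taken as a pairing in the main fit, was also used as a block. With it 1084, 3587 and 360 genes were called in Bmp15-/- and DM against wildtype and in DM against Bmp15-/-, and 2, 7 and 4 member genes. Dim probe sets have compressed changes.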
